A study of Rattus norvegicus with 27 samples.

Results

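Sodium and calcium channels set how hippocampal neurons fire and how calcium enters their cytoplasm, and the 34 genes described here encode these channels and the calcium release channels of the endoplasmic reticulum. They were chosen by symbol from the array's annotation, with the brightest probe set kept per gene, and are 34 of 18166 genes that could be named. The families were 8 pore subunits and 3 auxiliary beta subunits of voltage-gated sodium channels, 9 pore subunits, 4 alpha-2-delta subunits and 4 beta subunits of voltage-gated calcium channels, 3 ryanodine receptors and 3 inositol trisphosphate (IP3) receptors. Each had 1 probe set. A filter on dim probe sets, at a mean log2 value of 5.39 over all arrays, left 28 of the 34 among 12716 tested genes. Differences are given as log2(intensity + 16) with their SE, and a gene was called where limma's p-value, adjusted over all tested genes of a comparison, was under 0.05. Folds and factors were taken from these differences, on the same shifted scale, and so understate ratios of the printed intensities.

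The study measured RNA from the hippocampal regions CA1 and CA3 of male Long Evans rats on Affymetrix Rat Gene 2.0 arrays. Non-ischemic controls (NIC) were sham operated, and the reperfused group (8R) had 10 min of normothermic global brain ischemia, made by occluding both carotid arteries under hypotension, and then 8 h of reperfusion. Each array held 1 pool of the dissected region from 5 rats. Total RNA came from a share of the post-mitochondrial supernatant, and polysome RNA, the transcripts pelleted with ribosomes, from the rest after a 20% sucrose pad. There were 27 arrays in 8 groups. The 4 NIC groups had 3 arrays each, 8R CA1 polysome RNA had 3, and 8R CA1 total RNA, 8R CA3 total RNA and 8R CA3 polysome RNA had 4 each. All rats were of 1 sex and strain, and their age was not given in the labels. A pool of whole dissected region mixes neurons and glia, the pellet does not separate transcripts by ribosome number, and the same RNA mass was labelled for each array, so a change in the amount of RNA or of translation does not appear in these values.

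Voltage-gated sodium channels open when the membrane depolarises and carry the rising phase of the action potential, and their beta subunits are small membrane proteins that tune gating and place the channel at the surface. Voltage-gated calcium channels turn depolarisation into calcium entry, which triggers transmitter release, shapes dendritic firing and drives transcription. Their alpha-2-delta subunits lie on the outer face of the membrane and promote channel trafficking and presynaptic function, and their cytoplasmic beta subunits hold the pore subunit at the surface. Ryanodine receptors and IP3 receptors release calcium from the endoplasmic reticulum. Calcium overload during and after ischemia is a long-studied part of the delayed loss of CA1 pyramidal neurons, which CA3 neurons largely escape.

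Across arrays the median intensity was 25.6 to 38.1, and the lowest correlation between arrays of a group was 0.955 to 0.979 on the log2 scale. The median SD of a member within a group was 0.076 to 0.106 log2 in NIC and 0.159 to 0.254 log2 in 8R. In 8R the 4 arrays whose sample names carry pool number 4 stood apart, with deviations from their group means that correlated at 0.54 to 0.777. Results that move without them are given both ways. As a check of the dissection, 7 of 11 tested markers of CA1 pyramidal cells were higher in CA1 than in CA3 NIC total RNA and none lower, and 5 of 13 tested markers of CA3 pyramidal cells were lower and none higher. Markers of oligodendrocytes also differed between the regions, and 10 of 13 were higher in CA1 total RNA. Of 5 tested markers of dentate granule cells, 2 were higher in CA1 in each NIC fraction and 0 lower. In NIC polysome RNA 10 of 11 CA1 markers were higher in CA1, and of 13 CA3 markers 5 were lower and 2 higher. After reperfusion, 6 of 12 tested neuronal markers were lower in total and 8 of 12 in polysome RNA of CA1, against 2 lower and 1 higher in CA3 total RNA and 0 in CA3 polysome RNA. Both other array scalings, to equal medians and by quantiles, left the CA1 counts at 6 and 8 but called 4 lower in CA3 total RNA. Of the 11 tested CA1 pyramidal markers, 1 was higher and 3 lower in 8R CA1 total RNA, and 0 and 1 in CA1 polysome RNA. Their summed intensities overlapped, at 1864 to 2076 in NIC and 1495 to 2273 in 8R CA1 total RNA. In CA1 polysome RNA they were 2332 to 2827 in NIC and 1836 to 2935 in 8R. Of the tested markers of dentate granule cells (5), interneurons (11), endothelium (3) and choroid plexus, meninges and blood (2), 1, 1, 0 and 0 were higher in 8R CA1 total RNA and none lower as deposited. With equal medians none was higher and 1 of each list was lower. In these pooled tissues fewer cells of a type and less RNA per cell cannot be told apart.

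The results turn most on Cacna2d1 and Cacna2d3, alpha-2-delta subunits that rose together in total RNA of both regions, and on Scn2b, a sodium channel beta subunit that fell in total RNA of both regions. The 250 bases before the start of each gene are shown from RefSeq, build GRCr8, 5′ to 3′ on the gene's own strand, with motif matches in capitals. Cacna2d1 lies at chr4:20330148-20330397 on the minus strand, before the most upstream of 3 starts in the RefSeq table. Cacna2d3 lies at chr16:4918900-4919149 on the minus strand and Scn2b at chr8:54322133-54322382 on the plus strand.
Cacna2d1: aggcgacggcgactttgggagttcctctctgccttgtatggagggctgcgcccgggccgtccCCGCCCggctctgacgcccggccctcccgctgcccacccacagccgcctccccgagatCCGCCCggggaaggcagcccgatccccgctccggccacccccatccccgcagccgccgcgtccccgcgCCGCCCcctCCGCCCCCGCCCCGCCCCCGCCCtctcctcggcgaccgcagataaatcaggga
Cacna2d3: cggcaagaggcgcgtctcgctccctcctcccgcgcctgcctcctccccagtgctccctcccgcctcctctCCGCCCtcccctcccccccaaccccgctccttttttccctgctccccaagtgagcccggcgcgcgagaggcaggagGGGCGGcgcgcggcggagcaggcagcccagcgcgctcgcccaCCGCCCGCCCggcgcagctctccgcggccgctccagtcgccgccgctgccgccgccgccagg
Scn2b: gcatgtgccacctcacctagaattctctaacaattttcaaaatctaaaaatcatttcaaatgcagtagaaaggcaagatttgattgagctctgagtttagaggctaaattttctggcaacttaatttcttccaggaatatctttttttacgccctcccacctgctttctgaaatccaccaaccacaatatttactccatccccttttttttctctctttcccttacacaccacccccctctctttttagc
The capitals mark the GC box, GGGCGG or its reverse complement CCGCCC, and neighbouring or overlapping matches run together. The Cacna2d1 window held 7 matches and 77.2% G or C, the Cacna2d3 window 4 matches and 78.8%, and the Scn2b window 0 matches and 38.8%. Of 27457 rat promoter windows of this length, 32.4% held a GC box. The heat shock element TTCNNGAA (7.23% of windows), the cyclic AMP response element TGACGTCA (1.69%) and the AP-1 site TGANTCA (6.33%) were searched on both strands and matched none of the 3 windows. A window was in the table for 26 of the 34 members, under 80%, so a check of motif content over the whole set is void. A match is only a run of letters, and the absence of one says nothing of the factor.

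Cacna2d1 and Cacna2d3 rose in total RNA after ischemia and reperfusion in CA1 and in CA3, and in neither region did a rise appear in polysome RNA. Cacna2d1 encodes the alpha-2-delta-1 protein, the binding site of gabapentin and pregabalin. In CA1 total RNA its intensity was 72.5, 65.9 and 75.9 in the NIC pools and 144, 119, 142 and 144 in the 8R pools. Every 8R array was above every NIC array, a log2 difference of 0.81 ± 0.11 (SE), 1.75-fold (adjusted p = 3.13e-06). CA3 total RNA gave 52.9, 47.6 and 51.9 in NIC and 98.2, 74.7, 80.5 and 66.4 in 8R. These groups did not overlap either, and the log2 difference was 0.51 ± 0.11, 1.43-fold (adjusted p = 0.00208). The CA1 change exceeded the CA3 change by 0.29 on the log2 scale, with a 95% interval from -0.03 to 0.62 that includes 0.

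Cacna2d3 encodes a second neuronal alpha-2-delta protein. Its CA1 total RNA intensity was 152, 132 and 145 in NIC and 222, 229.9, 186 and 186 in 8R. All 8R arrays were again the higher ones, by 0.48 ± 0.11 log2 or 1.39-fold (adjusted p = 0.00164). The CA3 total RNA values were 101, 97.8 and 118 in NIC and 159, 150.2, 152 and 146 in 8R. The groups stood clear of each other, and the log2 difference of 0.47 ± 0.11, 1.38-fold, was close to that in CA1 (adjusted p = 0.00426). All 4 rises kept their call when any 1 array of the groups compared was left out and without the number 4 arrays.

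The polysome arrays of the same groups gave another picture. Cacna2d1 in CA1 polysome RNA was 136, 156 and 142 in NIC and 136, 191 and 137 in 8R. The groups overlapped, and the log2 difference was 0.07 ± 0.12, with a 95% interval from -0.17 to 0.32 (adjusted p = 0.78). CA3 polysome RNA gave 63.8, 79.3 and 76.3 in NIC and 73.1, 75.9, 75.8 and 68.5 in 8R. Here too the ranges overlapped, with a log2 difference of 0.01 and an interval from -0.22 to 0.23. Cacna2d3 in CA1 polysome RNA was 198, 225 and 204 in NIC and 165, 216 and 153 in 8R. Of these 8R arrays 1 lay within the NIC range and the others below it, and the log2 difference was -0.23 ± 0.12 (adjusted p = 0.254). In CA3 polysome RNA it was 115, 134 and 135 in NIC and 116, 149, 124 and 112 in 8R. Those arrays overlapped, with a difference of -0.03 ± 0.11.

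The test of the polysome change minus the total change compares the 2 fractions directly. In CA1 it was -0.73 ± 0.16 log2 for Cacna2d1 (adjusted p = 0.0156) and -0.70 ± 0.16 for Cacna2d3 (adjusted p = 0.0167). They were the 2 of 28 members called in this comparison, both lower, where 3.82% of all tested genes were called and 3.41% were called lower. In NIC CA1 the polysome arrays of Cacna2d1 had been 1.84-fold above the total arrays, and those of Cacna2d3 1.41-fold. In 8R CA1 the polysome mean was 0.15 log2 above the total mean for Cacna2d1 and 0.20 log2 below it for Cacna2d3. Both calls were lost without NIC CA1 total replicate 2 (adjusted p = 0.0658 for Cacna2d1 and 0.0747 for Cacna2d3) or without 8R CA1 polysome replicate 3 (0.0575 and 0.0696). Both were kept when all number 4 arrays were left out (0.0141 and 0.00986).

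In CA3 the same test gave -0.51 ± 0.16 for Cacna2d1 (adjusted p = 0.104) and -0.50 ± 0.16 for Cacna2d3 (adjusted p = 0.106), and neither was called. No member was called there, 7 of 28 had an unadjusted p under 0.05, and 0.165% of all tested genes were called. Total and polysome arrays of 8R that share a pool number deviated together, and with the pool as a random block the adjusted p was 0.0237 for Cacna2d1 and 0.0219 for Cacna2d3. With the number as a fixed block across conditions it was 0.0198 and 0.0146, but this fit also ties 8R to NIC arrays of the same number, whose deviations correlated at a median of only 0.0453. Without the number 4 arrays it was 0.0257 and 0.0407, and without 8R CA3 total replicate 4 alone it was 0.0305 and 0.047. The CA3 call therefore differs between these fits, while the size of the difference moved little. Both block fits also called more genes across the array, 1356 of 12716 with the random block and 1908 with the fixed block, against 21 in the main fit. Of the 28 members the random block called 0 higher and 3 lower, and the fixed block 1 higher and 3 lower.

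**Figure D1:**
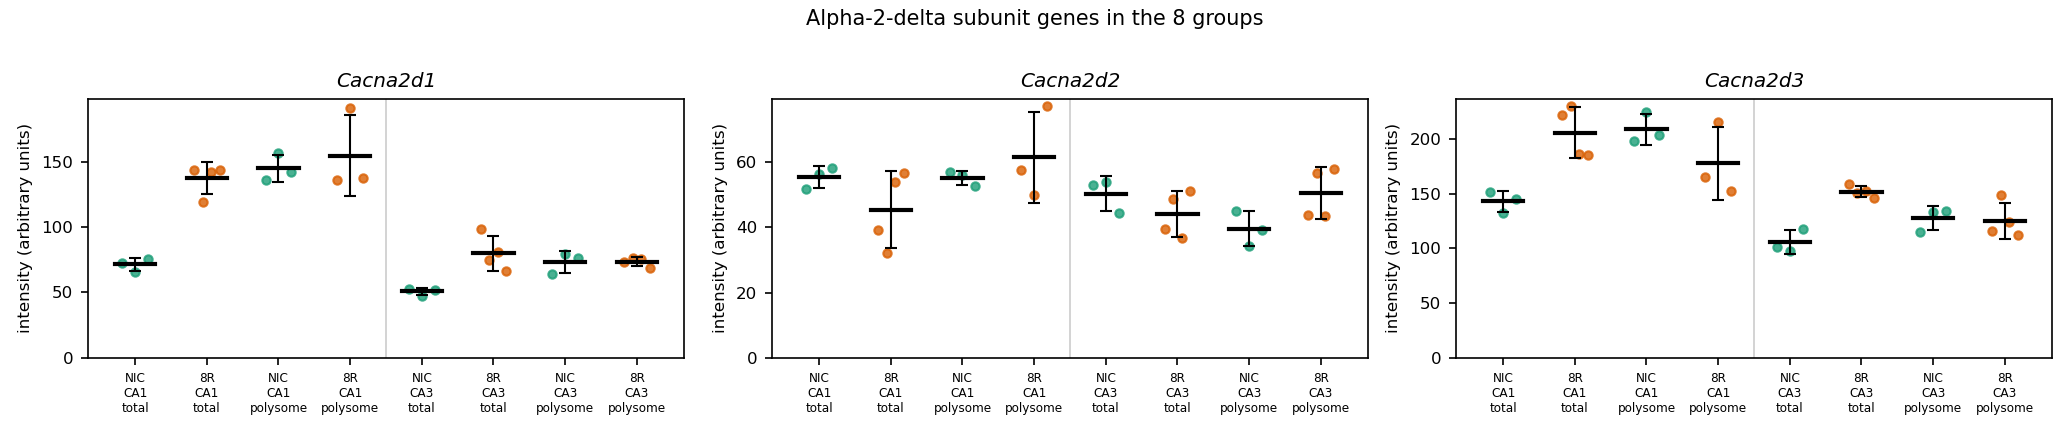
Intensity in arbitrary units (vertical axis, from 0) of the 3 tested alpha-2-delta genes in the 8 groups (horizontal axis), with 1 point per array, green for NIC and orange for 8R, and the group mean with 1 SD as a line and bar. For Cacna2d1 and Cacna2d3 the 8R total RNA points lie above the NIC total RNA points in both regions, while the polysome points of NIC and 8R overlap.

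Cacna2d2, the third tested alpha-2-delta gene, showed no called change. Its CA1 total RNA values were 51.7, 56.3 and 58.3 in NIC and 39.1, 32.2, 53.9 and 56.6 in 8R, which overlapped at a log2 difference of -0.24 ± 0.13 (adjusted p = 0.19). Without the number 4 arrays that difference was -0.32 and called lower (adjusted p = 0.0337). Cachd1, a protein related to the alpha-2-delta family, was on the list of calcium channel partners. It was higher in 8R in total RNA of CA1 (log2 difference 0.74, adjusted p = 0.000107) and of CA3 (0.52, adjusted p = 0.00726), and in polysome RNA of CA1 (0.64, adjusted p = 0.00475). With arrays scaled to equal medians the CA3 difference was 0.41 and not called (adjusted p = 0.0514).

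Across all 28 tested members, 8 were called in at least 1 comparison of 8R with NIC and 20 in none. In CA1 total RNA 3 were called higher and 3 lower, 6 of 28 in all, where 26.3% of tested genes were called, 20.1% of all tested higher and 6.15% lower. The median member difference was -0.15 log2, against 0.04 for all tested genes, and 19 of 28 were below 0. The arrays of 8R and NIC did not overlap for 10 of 28 members, where 34.6% of tested genes did not overlap. In CA1 polysome RNA 1 was called higher and 3 lower, where 8.33% of tested genes were called, 4.87% of all tested higher and 3.46% lower, and this count rested on few arrays. It was 9 without 8R CA1 polysome replicate 2, 0 without replicate 3, 1 or 2 without any other array of that comparison, 14 with arrays weighted by quality and 1 (Scn2a) in a fit of those 6 arrays alone. The weighted fit called 2197 of all 12716 tested genes, and the fit of those 6 arrays 452. For CA3 total RNA 2 were called higher and 1 lower, where 15.5% were called, 14.2% higher and 1.34% lower. With the replicate number as a fixed block across conditions, which the NIC arrays do not bear out, the counts were 10 in CA1 total RNA and 9 in CA3 total RNA, and without the number 4 arrays 7 were called in CA3 total RNA. That block called 5332 of all 12716 tested genes in CA1 total RNA and 4367 in CA3 total RNA. In CA3 polysome RNA no member was called, 2 of 28 had an unadjusted p under 0.05, and 2.66% of tested genes were called.

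The CA1 counts depend on how arrays are scaled. Scaling the arrays to equal medians moved the median of all tested genes in CA1 total RNA from 0.04 to -0.06, and 2 members were then higher and 10 lower. Quantile normalization gave 3 higher and 11 lower. Of the 12716 tested genes, 782 were called lower as deposited, 1919 with equal medians and 1855 after quantile normalization. Those called higher were 2561, 1849 and 2047. The 7 members lower under both of these scalings alone were Cacna1a (-0.44 with equal medians), Cacna1b (-0.34), Cacna1h (-0.39), Cacna1i (-0.44), Cacnb2 (-0.38), Itpr3 (-0.32) and Scn8a (-0.39). Among all genes called in CA1 total RNA, 76.6% were higher as deposited, 49.1% with equal medians and 52.5% after quantile normalization. For CA3 total RNA these shares were 91.4%, 60.8% and 58.2%.

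**Figure D2:**
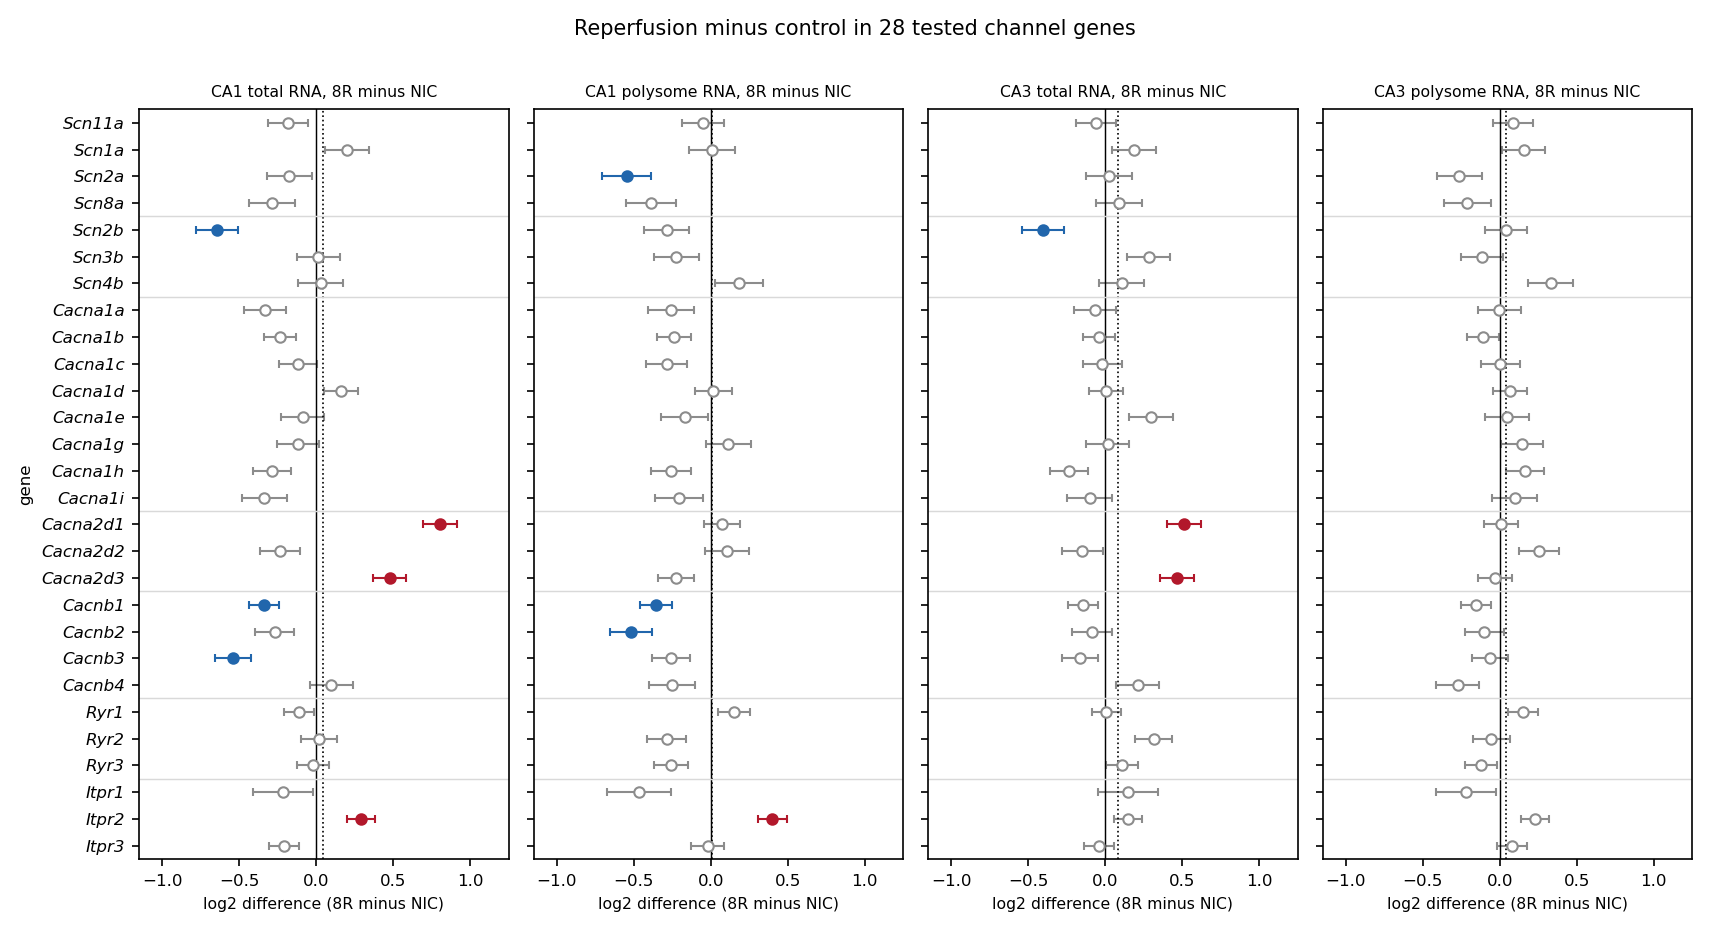
Log2 difference between 8R and NIC (horizontal axis) of the 28 tested members (vertical axis, by family) in the 4 combinations of region and fraction, with bars of 1 SE. Red filled points were called higher, blue filled points lower and open grey points not called, and the dotted line is the median of all tested genes. Cacna2d1 and Cacna2d3 are red in both total RNA panels, and no point is filled in CA3 polysome RNA.

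Among the sodium channel genes, Scn2b was lower after reperfusion in total RNA of both regions. Scn2b encodes the beta-2 subunit, which binds the pore subunit through a disulphide bond. In CA1 total RNA it was 426, 418 and 439.9 in NIC and 257, 206, 307 and 311 in 8R. The 8R arrays were all below the NIC arrays, at a difference of -0.65 ± 0.14 log2, a factor of 1.57 (adjusted p = 0.00062). In CA3 total RNA it was 357, 421 and 426 in NIC and 279.7, 294, 340.3 and 284 in 8R. The groups did not overlap, and the difference was -0.40 ± 0.14 log2 (adjusted p = 0.0425). That CA3 call was lost on leaving out any of 5 of the 7 arrays (NIC replicates 2 and 3, and 8R replicates 1, 2 and 4, adjusted p from 0.0564 to 0.159) and with no filter on dim genes (0.0563), while the CA1 call was kept on leaving out each array in turn.

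In polysome RNA Scn2b was not called in either region. It was 406, 329.9 and 311 in NIC CA1 and 210.2, 342 and 310.3 in 8R CA1, which overlapped (log2 difference -0.29 ± 0.15). In CA3 polysome RNA it was 258, 295 and 278 in NIC and 245, 287, 301 and 313 in 8R, which also overlapped (0.04 ± 0.14). The difference between the fractions' changes was 0.36 ± 0.20 in CA1 (adjusted p = 0.273) and 0.44 ± 0.19 in CA3 (adjusted p = 0.195), and neither was called. In total RNA the neuronal marker list fell beside Scn2b in CA1, with a summed intensity of 14552 to 15299 in NIC and 11647 to 14000 in 8R, and its part in the Scn2b difference was not tested. In CA3 the summed ranges overlapped, 15251 to 16281 in NIC and 14194 to 16373 in 8R.

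Scn2a, the pore subunit Nav1.2 of unmyelinated axons and initial segments, was lower in CA1 polysome RNA. Its values were 295, 289 and 266 in NIC and 156, 227 and 189 in 8R. All 8R arrays were below the NIC arrays, at a difference of -0.55 ± 0.16 log2, a factor of 1.46 (adjusted p = 0.027). The call held only when 8R replicate 2 was the array left out, and leaving out any of the other 5 gave an adjusted p from 0.0519 to 0.164. The CA1 total RNA arrays gave 159, 135 and 156 in NIC and 125, 111, 164 and 127 in 8R. These overlapped, with a difference of -0.18 ± 0.15 (adjusted p = 0.402). The summed intensity of the neuronal markers in CA1 polysome RNA was 17799 to 18759 in NIC and 13537 to 15851 in 8R, and its part in the Scn2a difference was not tested.

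The other tested sodium channel members passed no test between 8R and NIC. They were the pore subunits Scn1a (Nav1.1, prominent in interneurons), Scn8a (Nav1.6) and Scn11a (Nav1.9, best known from sensory neurons), and the beta subunits Scn3b and Scn4b. In CA1 total RNA their log2 differences were 0.20 ± 0.14 for Scn1a, -0.29 ± 0.15 for Scn8a, -0.18 ± 0.13 for Scn11a, 0.01 ± 0.14 for Scn3b and 0.03 ± 0.15 for Scn4b. Scn4b was 1 of the 2 members with the lowest p in CA3 polysome RNA. It was 42.3, 33.1 and 27.2 there in NIC and 44.4, 41.4, 48.4 and 53.1 in 8R. The ranges overlapped at 1 array, and the difference of 0.33 ± 0.15 had an adjusted p of 0.212.

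All 3 calcium channel beta subunit genes that were called were lower in CA1, in 1 or both fractions. Cacnb3 encodes a beta subunit that pairs mainly with N-type and L-type channels. Its CA1 total RNA intensity was 136, 148 and 148 in NIC and 93.0, 98.2, 106 and 80.5 in 8R. No 8R array reached the NIC range, and the difference was -0.54 ± 0.12 log2, a factor of 1.46 (adjusted p = 0.000841). In CA1 polysome RNA it was 177, 148 and 152 in NIC and 122, 163 and 109.6 in 8R. The groups overlapped there, with a difference of -0.26 ± 0.13 (adjusted p = 0.215). Its CA3 total RNA arrays gave 129, 128 and 114 in NIC and 110.2, 117, 122 and 88.5 in 8R, which overlapped (difference -0.16 ± 0.12, adjusted p = 0.379).

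Cacnb1, the beta subunit of skeletal muscle L-type channels that is also expressed in brain, was lower in both CA1 fractions. Total RNA of CA1 gave 377, 448 and 381 in NIC and 316, 276, 359 and 309 in 8R. The groups did not overlap, at -0.34 ± 0.097 log2 (adjusted p = 0.0102), though the call was lost without NIC CA1 total replicate 2 (adjusted p = 0.1). In CA1 polysome RNA it was 584, 535 and 541 in NIC and 413, 504 and 381 in 8R. Those arrays did not overlap either, at -0.35 ± 0.10 log2 (adjusted p = 0.0309), and the call was lost in 5 of 6 fits that left out an array (all but that without 8R replicate 2, adjusted p from 0.0663 to 0.203), after quantile normalization (0.069) and without the number 4 arrays (0.0969).

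Cacnb2, a beta subunit of cardiac and neuronal L-type channels, was lower in CA1 polysome RNA. It was 629, 645 and 555 in NIC and 399.8, 555 and 334 in 8R. 1 of the 8R arrays touched the NIC range and the others lay well below it, giving -0.52 ± 0.14 log2, a factor of 1.43 (adjusted p = 0.0162). The call was lost without NIC replicate 1 or 2, or without 8R replicate 1 or 3 (0.0623 to 0.165), and without the number 4 arrays (0.0568). Cacnb2 in CA1 total RNA was 415, 433 and 421 in NIC and 329.8, 322, 437 and 316 in 8R. There 3 of the 4 8R arrays were below all NIC arrays and 1 was above them (difference -0.27 ± 0.13, adjusted p = 0.12). Cacnb4, the beta subunit mutated in the lethargic mouse, was not called in any of the 4 comparisons, with differences of 0.10 and -0.25 in CA1 total and polysome RNA and of 0.21 and -0.27 in CA3. Without the number 4 arrays it was higher in CA3 total RNA, at 0.33 (adjusted p = 0.00535).

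None of the 8 tested pore subunits of voltage-gated calcium channels passed the test between 8R and NIC. These were the P/Q-type Cacna1a, N-type Cacna1b, L-type Cacna1c and Cacna1d, R-type Cacna1e and the T-type genes Cacna1g, Cacna1h and Cacna1i. In CA1 total RNA their log2 differences ran from -0.34 ± 0.15 for Cacna1i to 0.16 ± 0.11 for Cacna1d, and those of Cacna1a and Cacna1h were -0.33 ± 0.14 (adjusted p = 0.0727) and -0.29 ± 0.12 (adjusted p = 0.0882). Without the number 4 arrays, Cacna1a (-0.39) and Cacna1h (-0.33) were called lower in CA1 total RNA. Cacna1h was then also lower in polysome RNA of CA1 (-0.41) and total RNA of CA3 (-0.27), where Cacna1e was higher (0.41).

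Itpr2, an IP3 receptor best known from astrocytes and heart, was the one store release gene called, and it was higher in both CA1 fractions. The CA1 total RNA arrays gave 44.2, 39.3 and 40.0 in NIC and 53.3, 51.6, 53.0 and 57.5 in 8R. All 8R arrays were above the NIC arrays, by 0.29 ± 0.091 log2, 1.22-fold (adjusted p = 0.0177). This call was lost without NIC CA1 total replicate 2 (0.0777) or 3 (0.0622) and with arrays scaled to equal medians (0.129). In CA1 polysome RNA it was 56.4, 58.0 and 57.2 in NIC and 82.2, 70.3 and 90.5 in 8R. The 8R arrays again lay above all NIC arrays, by 0.40 ± 0.097 log2, 1.32-fold (adjusted p = 0.00942), and the call was lost without 8R CA1 polysome replicate 3 (0.0854).

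In CA3 Itpr2 was not called. CA3 polysome RNA gave 43.8, 49.96 and 41.6 in NIC and 51.3, 60.3, 51.6 and 60.0 in 8R. The groups did not overlap, but the difference of 0.23 ± 0.091 had an adjusted p of 0.159. CA3 total RNA gave 47.7, 37.7 and 37.1 in NIC and 45.9, 47.6, 43.0 and 50.3 in 8R, which overlapped (0.15 ± 0.091). In CA1, 4 of 11 tested astrocyte markers were higher in total and 2 in polysome RNA, where 20.1% and 4.87% of all tested genes were called higher. In CA3, 2 of 11 were higher in total and 1 in polysome RNA. The summed intensity of the astrocyte markers in CA1 total RNA was 4075 to 4293 in NIC and 5096 to 5911 in 8R. In CA1 polysome RNA it was 4906 to 5090 in NIC and 5401 to 6932 in 8R. The sums were also higher in CA3, at 3701 to 3788 in NIC and 4006 to 5065 in 8R total RNA. In CA3 polysome RNA they were 3934 to 4123 in NIC and 4295 to 4649 in 8R. Microglial markers were higher for 4 of 10 in each CA1 fraction, with sums of 571 to 614 in NIC and 691 to 832 in 8R CA1 total RNA. In CA3, 3 of 10 were higher in total and 2 in polysome RNA. Of all tested genes 14.2% were called higher in CA3 total RNA, and 2.66% were called either way in CA3 polysome RNA. With equal medians 0 of 10 microglial and 1 of 11 astrocyte markers were higher in CA3 total RNA. Quantile normalization gave 2 and 1 there. The microglial sums in CA3 total RNA were 489 to 585 in NIC and 654 to 741 in 8R. The part of either cell type in the Itpr2 difference was not tested.

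**Figure D3:**
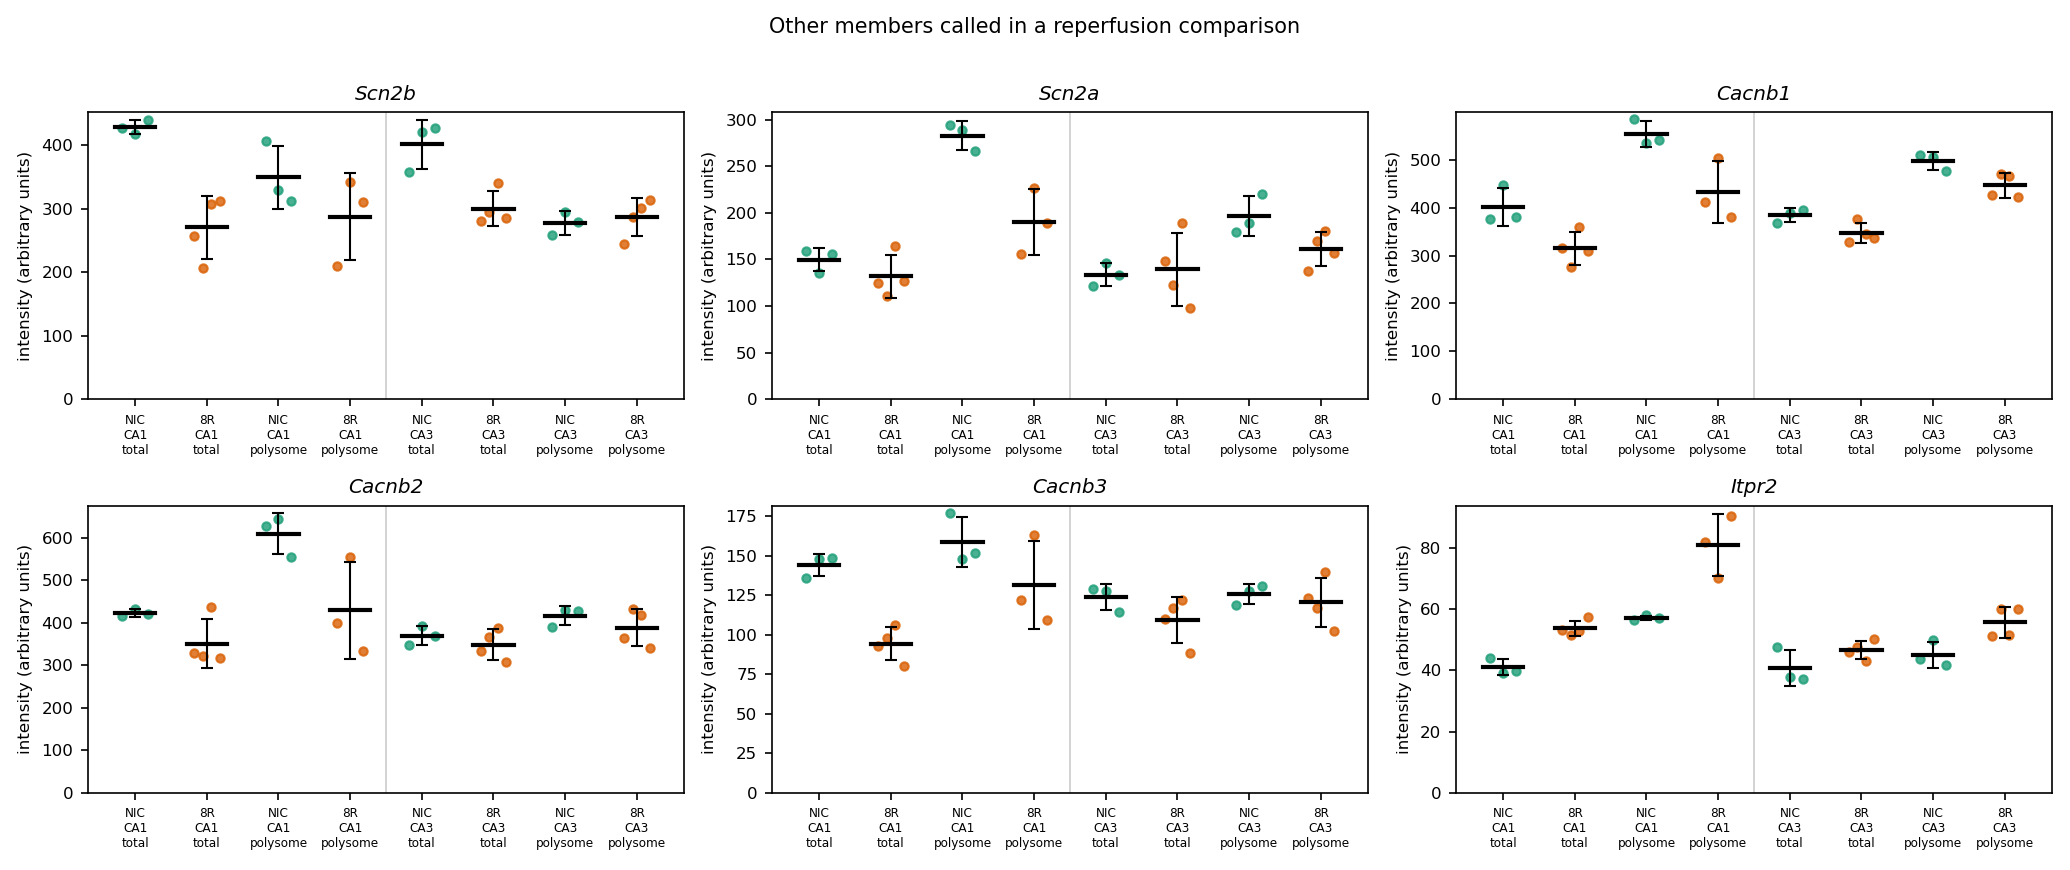
Intensity in arbitrary units (vertical axis, from 0) in the 8 groups (horizontal axis) of the other members called between 8R and NIC, with 1 point per array, green for NIC and orange for 8R, and the group mean with 1 SD. Scn2b and Cacnb3 are lower in 8R CA1 total RNA, Scn2a in 8R CA1 polysome RNA and Cacnb1 in both, while Itpr2 is higher in both.

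The remaining store release genes were not called between 8R and NIC. Ryr2, the main ryanodine receptor of heart and brain, differed by 0.02 log2 in total and -0.29 in polysome RNA of CA1, and by 0.32 in total RNA of CA3, where it was called higher without the number 4 arrays (0.43, adjusted p = 0.00175). Itpr1, the main neuronal IP3 receptor, differed by -0.22 ± 0.19 in total and -0.47 ± 0.21 in polysome RNA of CA1 (adjusted p = 0.168). Ryr1, Ryr3 and Itpr3 differed by -0.11, -0.02 and -0.21 in CA1 total RNA.

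Whether the response of a channel gene differed between the vulnerable and the resistant region was tested as the CA1 change minus the CA3 change. No member was called in total RNA (1 of 28 at an unadjusted p under 0.05) or in polysome RNA (2 of 28), where limma called 0.0236% and 0.0157% of all tested genes. In total RNA the point values leaned towards a lower change in CA1 for 23 of 28 members and for 7110 of 12716 tested genes, with medians of -0.15 and -0.03. In polysome RNA they did so for 24 of 28 members and 7659 tested genes, with medians of -0.16 and -0.05. The neuronal marker list had medians of -0.21 in total and -0.31 in polysome RNA. Those of the partner lists were -0.17 and -0.15 (sodium channels), -0.06 and -0.07 (calcium channels) and -0.09 and -0.11 (calcium stores, entry, extrusion and buffering). The 2 members with the lowest p in total RNA were Cacnb3, at -0.38 ± 0.17 (95% interval -0.72 to -0.04, adjusted p = 0.936), and Cacna1e, at -0.39 ± 0.20 (-0.80 to 0.02, adjusted p = 0.973). In polysome RNA they were Cacna1h, at -0.42 ± 0.18 (-0.79 to -0.05, adjusted p = 0.854), and Cacnb2, at -0.42 ± 0.19 (-0.80 to -0.04, adjusted p = 0.862). With the pool as a random block, which joins the 8R arrays of both regions that share a number, again no member was called in either fraction. The calls in CA1 for Cacnb1, Cacnb2, Cacnb3, Scn2a and Itpr2 are therefore not shown to differ from CA3. Members called in CA1 and CA3 total RNA were Cacna2d1, Cacna2d3 and Scn2b, 3 of the 6 called in CA1 and 3 of the 3 called in CA3. The members called in both CA1 fractions were Cacnb1 and Itpr2, 2 of the 6 called in total RNA and 2 of the 4 in polysome RNA.

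Without ischemia, several channel genes were higher in CA1 than in CA3. Scn3b, the sodium channel beta-3 subunit, was the member with the largest regional difference. In NIC total RNA it was 652, 732 and 731 in CA1 and 307, 398 and 360.3 in CA3. The regions did not overlap, at 0.96 ± 0.15 log2 or 1.95-fold (adjusted p = 0.000105). In NIC polysome RNA it was 754, 875 and 802 in CA1 and 329.8, 387 and 415 in CA3. That gap was of similar size, 1.08 ± 0.15 log2 or 2.11-fold (adjusted p = 8.65e-06).

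Cacna1e, which carries R-type current in dendrites and spines, was the other member called in total RNA. It was 141, 155 and 139.8 in NIC CA1 total RNA and 78.3, 81.5 and 78.5 in NIC CA3 total RNA. All CA1 arrays were the higher ones, by 0.76 ± 0.15 log2 or 1.69-fold (adjusted p = 0.00254). In polysome RNA it was 275, 305 and 282 in CA1 and 138, 145 and 159.5 in CA3. The difference was 0.89 ± 0.15 log2 (adjusted p = 0.000127), again with no overlap. Of the 28 members 2 were thus called in NIC total RNA, both higher in CA1, where 3.47% of tested genes were called, 2.41% higher and 1.06% lower. A fit of these 6 arrays alone, without the wider spread of the 8R arrays, called 9 members, and without the number 4 arrays 6 were called. The fit of these 6 arrays called 1255 of all 12716 tested genes.

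In NIC polysome RNA 16 of 28 members were called higher in CA1 and 0 lower, where 28.4% of tested genes were called, 27.7% of all tested higher and 0.731% lower. Both members called in total RNA were among the 16. The median of all tested genes was itself 0.23 log2 in this comparison, against 0.36 for the members, and scaling the arrays to equal medians brought it to 0. Under that scaling and under quantile normalization 6 members were called, all higher in CA1, where 604 and 571 of 12716 tested genes were called. Both scalings called Cacna1e, Cacna1h, Cacna2d1, Cacna2d3 and Scn3b, and the sixth was Cacna1a or Itpr1. Of all genes called here, 97.4% were higher in CA1 as deposited, 60.4% with equal medians and 58.7% after quantile normalization.

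Cacna1h, the T-type pore subunit Cav3.2, gave, in NIC polysome RNA, 187, 203 and 169 in CA1 and 96.3, 96.9 and 84.5 in CA3. The regions were far apart, by 0.90 ± 0.13 log2 or 1.86-fold (adjusted p = 2.05e-05). In total RNA it was 109.5, 127 and 121 in CA1 and 87.8, 104 and 88.1 in CA3. Those arrays did not overlap either, but the difference of 0.31 ± 0.13 was not called (adjusted p = 0.265). Cacna2d1 in NIC polysome RNA, with the array values given above, was 0.85 ± 0.12 log2 or 1.81-fold higher in CA1 (adjusted p = 9.57e-06). In total RNA it was 0.39 ± 0.12 log2 higher and not called (adjusted p = 0.0692), but was called with equal medians and after quantile normalization. Oligodendrocyte markers moved with region, with 12 of 13 higher in CA1 polysome RNA and sums of 3885 to 4837 in CA1 and 2172 to 2748 in CA3, and their part in these regional differences was not tested.

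After reperfusion the regional order of group means was the same for these members. For Scn3b the 8R mean in CA1 was 0.69 log2 above that in CA3 in total RNA and 0.97 in polysome RNA. For Cacna2d1 these values were 0.68 and 0.92.

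**Figure D4:**
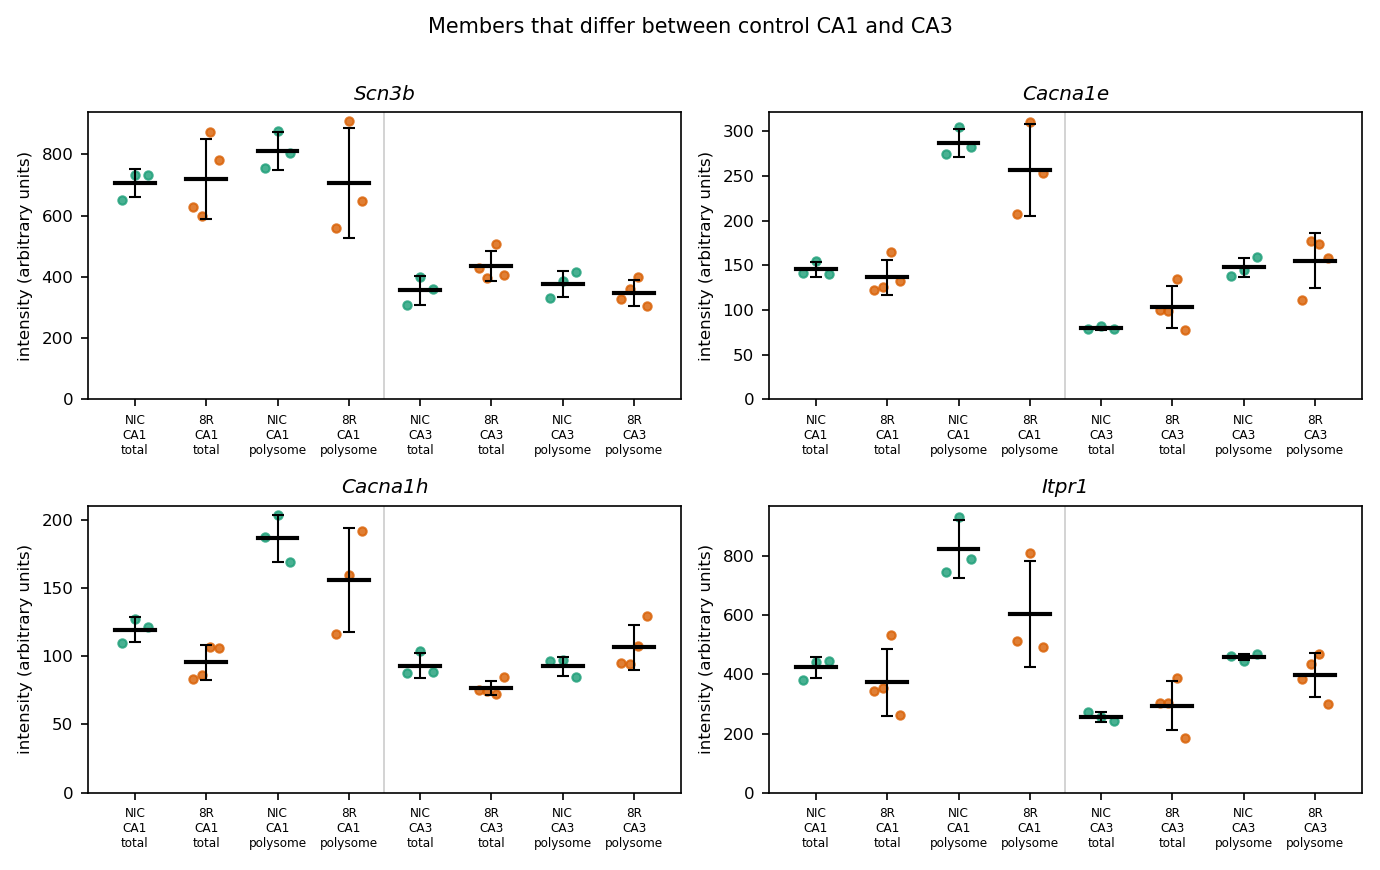
Intensity in arbitrary units (vertical axis, from 0) in the 8 groups (horizontal axis) of Scn3b, Cacna1e, Cacna1h and Itpr1, with 1 point per array, green for NIC and orange for 8R, and the group mean with 1 SD. The CA1 points of Scn3b and Cacna1e, left of the grey line, lie above the CA3 points of the same condition and fraction, except where 8R CA1 and CA3 total RNA points of Cacna1e meet.

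In control tissue the 2 fractions were compared as polysome minus total RNA. In NIC CA1 20 of 28 members were higher in polysome RNA and 0 lower, where 44% of tested genes were called, 39.4% of all tested higher and 4.62% lower. The median member difference was 0.49 log2, against 0.20 for all tested genes. In NIC CA3 11 were higher and 1 lower, where 38.4% of tested genes were called, 21.5% higher and 16.9% lower, and the medians were 0.18 and 0.00. The regions shared 11 called members, 11 of the 20 called in CA1 and 11 of the 12 called in CA3. Scaling to equal medians left 12 higher and 1 lower in CA1 and 11 higher and 1 lower in CA3, and quantile normalization left 9 and 1 in CA1 and 7 and 1 in CA3. Of all 12716 tested genes, equal medians called 2801 higher and 1770 lower in CA1, and 2993 and 2043 in CA3. Quantile normalization called 2365 and 1807 in CA1, and 2480 and 1930 in CA3.

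Ryr2 had the largest difference in both regions. In CA1 it was 160.0, 162 and 157 in NIC total RNA and 344, 350.3 and 306 in NIC polysome RNA. The fractions stood well apart, by 0.99 ± 0.13 log2 or 1.99-fold (adjusted p = 6.44e-07). In CA3 it was 117, 136 and 133 in total and 219, 239 and 258 in polysome RNA. Here the difference was 0.81 ± 0.13 log2 or 1.76-fold (adjusted p = 2.11e-05), with no overlap.

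Itpr1 followed, at 382, 444 and 445 in total and 747, 934 and 792 in polysome RNA of NIC CA1. The polysome arrays were all higher, by 0.93 ± 0.21 log2 (adjusted p = 0.000555). In CA3 it was 275, 255 and 241 in total and 462, 446 and 469 in polysome RNA. These did not overlap either, at 0.80 ± 0.21 log2 (adjusted p = 0.0035). Cacna1e, from the array values given above, was 0.91 ± 0.15 log2 higher in polysome RNA in CA1 (adjusted p = 1.93e-05) and 0.78 ± 0.15 in CA3 (adjusted p = 0.000272).

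Cacna2d1 was 0.88 ± 0.12 log2 higher in polysome than in total RNA of NIC CA1 (adjusted p = 1.3e-06) and 0.41 ± 0.12 in NIC CA3 (adjusted p = 0.0077). Cacnb4 in NIC CA3 was 182, 148 and 161 on the total arrays and 258, 247 and 258 on the polysome arrays. All polysome arrays were above the total arrays, by 0.60 ± 0.15 log2 (adjusted p = 0.00276).

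Scn2b went the other way in NIC CA3, as the 1 member called lower in polysome RNA. From the array values given above, its polysome arrays were all below its total arrays, at -0.51 ± 0.15 log2, a factor of 1.42 (adjusted p = 0.00741). In NIC CA1 it differed by -0.29 ± 0.15 and was not called (adjusted p = 0.108), but was lower with equal medians (-0.51) and after quantile normalization (-0.69).

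By family and as deposited, all 8 tested calcium channel pore subunits were higher in polysome RNA of NIC CA1 and 3 of 8 (Cacna1c, Cacna1e and Cacna1i) in NIC CA3. Of all tested genes 39.4% and 21.5% were called higher there. Over all families, 12 members in place of 20 were called higher in CA1 with equal medians, and 9 after quantile normalization. The sodium channel pore subunits Scn1a, Scn2a and Scn8a were higher in CA1, and Scn2a and Scn8a in CA3. None of the 3 sodium channel beta subunits was called higher in either region. Of the other families, Ryr2, Ryr3, Itpr1, Cacnb1, Cacnb4 and Cacna2d1 were higher in both regions, and Itpr2, Cacna2d3 and Cacnb2 in CA1 alone, where the difference between regions was not tested. In 8R, group means of polysome RNA were above those of total RNA for 26 of 28 members in CA1 (median 0.38 log2) and 22 of 28 in CA3 (median 0.15).

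**Figure D5:**
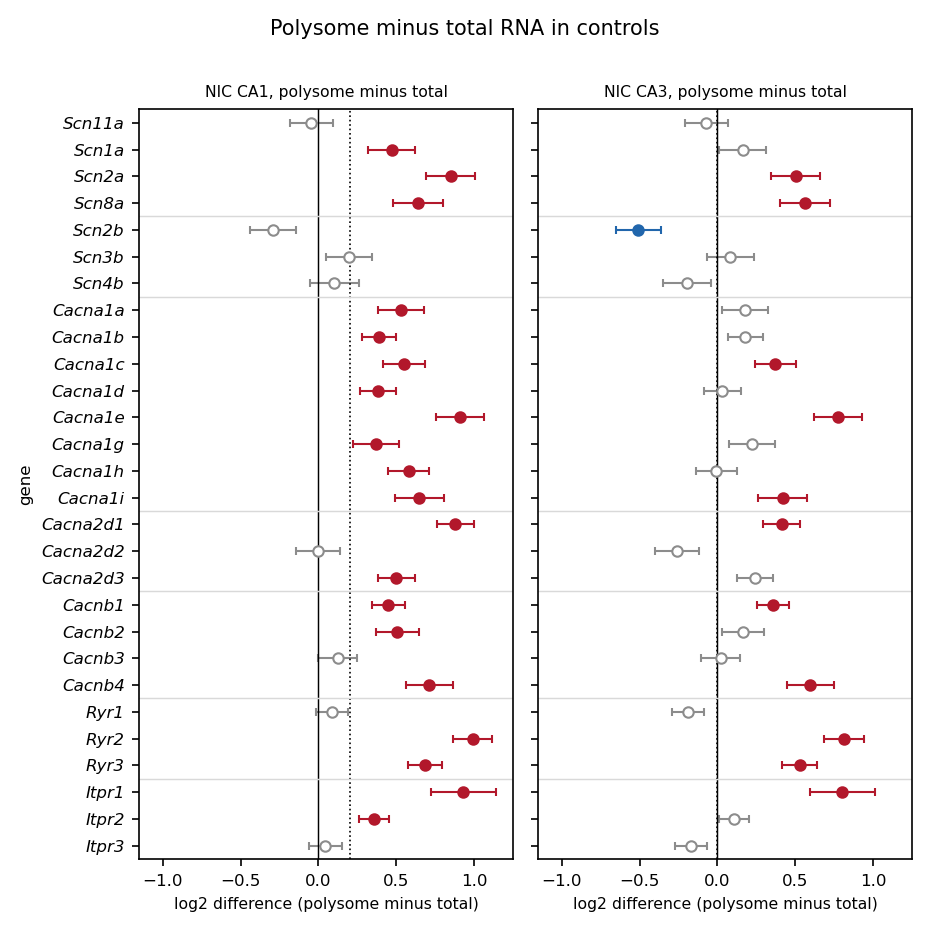
Log2 difference between polysome and total RNA (horizontal axis) of the 28 tested members (vertical axis, by family) in NIC CA1 and NIC CA3, with bars of 1 SE. Red filled points were called higher in polysome RNA, blue lower and open grey points not called, and the dotted line is the median of all tested genes. With arrays scaled as deposited, all calcium channel pore subunits are red in CA1, and Scn2b is the 1 blue point, in CA3.

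The other 6 members fell below the filter. They were the sodium channel pore subunits Scn4a, Scn7a, Scn9a and Scn10a, best known from skeletal muscle, glia and sensory neurons, and the retinal calcium channel genes Cacna1f and Cacna2d4. Their intensities never exceeded 30.2 on any of the 27 arrays. Just inside the filter were Scn11a and Scn1a, with means of 5.50 and 5.55 log2, and just outside were Cacna1f and Cacna2d4, at 5.22 and 5.21. A mean near the filter is a property of the probe set as well as of the transcript.

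Genes that work with these channels were read from 3 lists. Of 14 tested sodium channel partners, Nfasc, which anchors channels at the initial segment, was lower in CA1 total RNA (-0.38, adjusted p = 0.0126). Fgf13, an intracellular modulator of sodium channels, and Calm2, a calmodulin gene, were lower in CA1 polysome RNA (-0.64, adjusted p = 0.00667, and -0.54, adjusted p = 0.0212). Cntn1, an adhesion molecule that binds the channel complex, was the 1 partner higher in CA3 total RNA (0.51, adjusted p = 0.000571), and none was called in CA3 polysome RNA. With equal medians 4 partners were lower in total and 3 in polysome RNA of CA1, and quantile normalization gave 3 in each fraction. The list medians for CA1 total, CA1 polysome, CA3 total and CA3 polysome RNA were -0.03, -0.16, 0.04 and -0.04 log2 as deposited. Of all tested genes 26.3%, 8.33%, 15.5% and 2.66% were called in these 4 comparisons.

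Of 18 tested calcium channel partners, Rrad, a small GTPase that binds beta subunits and inhibits channel opening, was higher in every comparison of 8R with NIC. Its log2 differences were 0.72 (CA1 total RNA, adjusted p = 0.0105), 1.04 (CA1 polysome RNA, 0.00353), 1.30 (CA3 total RNA, 9.49e-05) and 1.12 (CA3 polysome RNA, 0.00283), and both other scalings kept these calls. Cacng2, a transmembrane regulator of AMPA receptors known as stargazin, was lower in CA1 total RNA (-0.33, adjusted p = 0.0252). Rims1, which tethers calcium channels at release sites, was lower in CA1 polysome RNA (-0.56, adjusted p = 0.00481), and its polysome change was below its total change (-0.71, adjusted p = 0.0212). Stac2, an adaptor of L-type channels, was higher in CA3 polysome RNA (0.54, adjusted p = 0.0178), but not after quantile normalization (adjusted p = 0.0848). Cacng7 had a polysome change above its total change in CA1 (0.64, adjusted p = 0.0323). With Cachd1, the counts were 2 higher and 1 lower in each CA1 fraction and 2 higher and 0 lower in each CA3 fraction, with list medians for CA1 total, CA1 polysome, CA3 total and CA3 polysome RNA of 0.04, 0.11, 0.08 and 0.11 log2. In CA1 total RNA this lean towards higher holds only as deposited, since 2 were higher and 4 lower there under both other scalings. Polysome RNA of CA1 had 2 higher and 3 lower with equal medians, and 3 higher and 2 lower after quantile normalization. As deposited, 26.3% of all tested genes were called in CA1 total, 8.33% in CA1 polysome, 15.5% in CA3 total and 2.66% in CA3 polysome RNA.

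Of 34 tested genes for calcium stores, entry, extrusion and buffering, 5 were higher and 1 lower in CA1 total RNA as deposited, where 26.3% of all tested genes were called. With equal medians 4 were higher and 6 lower, and after quantile normalization 3 higher and 6 lower. The largest changes were in Calb1, the buffer calbindin (1.10, adjusted p = 6.27e-05), Jph4, a junctophilin that ties store and surface membranes (-0.59, adjusted p = 0.00127), Stim2, a store calcium sensor (0.53, adjusted p = 0.00758) and Micu2, a regulator of the mitochondrial uniporter (0.46, adjusted p = 0.021). Stim2 was not called after quantile normalization (adjusted p = 0.07). In CA1 polysome RNA 3 were higher and 2 lower as deposited (8.33% of all tested genes were called), 3 higher and 7 lower with equal medians and 3 higher and 4 lower after quantile normalization, led by Itpkb (0.87, adjusted p = 0.0234), Jph1 (-0.65, adjusted p = 0.0414), Calb2 (0.53, adjusted p = 0.0112) and Itpkc (0.49, adjusted p = 0.00675), where Itpkb and Itpkc phosphorylate IP3. Itpkb was not called after quantile normalization (0.0508), nor Jph1 without the number 4 arrays (0.132). Total RNA of CA3 had 4 higher and 1 lower, namely Atp2a2, the calcium pump of the endoplasmic reticulum (0.51, adjusted p = 0.00229), Atp2b1 (0.39, adjusted p = 0.0378), Pvalb (0.33, adjusted p = 0.0114) and 1 more, with Jph4 lower (-0.45, adjusted p = 0.02). Neither Atp2b1 nor Pvalb kept its call under the other scalings, which left 1 higher and 1 lower with equal medians and 1 higher and 2 lower after quantile normalization. None was called in CA3 polysome RNA, and the list medians were 0.03, -0.10, 0.13 and -0.07 log2. Of all tested genes 15.5% were called in CA3 total and 2.66% in CA3 polysome RNA.

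The partners also differed between control regions. Atp2b1, a plasma membrane calcium pump, was 1.09 log2 higher in CA1 than in CA3 in NIC total RNA (adjusted p = 6.06e-06) and 1.24 in NIC polysome RNA (3.42e-07), while its relative Atp2b4 was lower, at -0.99 (8.72e-05) and -1.05 (1.37e-05). Calb2, the buffer calretinin, was lower in CA1, at -1.09 in each fraction (2.93e-06 and 1.27e-06). Cacng3 was higher in CA1, by 1.10 (4.13e-05) and 1.26 (2.19e-06). In the polysome to total comparison of NIC, Cacng7 was lower in polysome RNA in CA1 (-1.03, adjusted p = 2.85e-07) and in CA3 (-1.22, adjusted p = 2.44e-08), while Ank3, which encodes the initial segment scaffold ankyrin G, was higher (0.78, adjusted p = 1.98e-05, and 0.62, adjusted p = 0.000572).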

How the data were processed

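Total and polysome RNA of CA1 and CA3 pools was hybridised to 27 single-channel arrays. The deposited file holds linear intensities, with 1 value for each probe set on each array. The authors used PLIER and Affymetrix Expression Console per the submitters' processing notes, with the version, the background correction and the scaling between arrays not given in the sources used here. No direction had to be settled, and no column was centred.

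Of 36685 probe sets, 18511 carried 1 symbol, 575 several and 17599 none, and 18394 of the first matched a current gene record. Values were taken as log2(intensity + 16), a scale that understates the changes of dim genes, and genes under the 30th percentile of mean log2 were left out. Differences were tested with limma 3.58.1 in R 4.3.3, fitting the 27 arrays together with 1 mean per group, a variance trend over intensity, 19 residual degrees of freedom and 10.1 prior ones. The two-sided p-values were adjusted by Benjamini-Hochberg over the 12716 tested genes of a comparison, and genes with an adjusted p under 0.05 were called. Every adjusted p is from limma, and ± is the SE of a log2 difference. The test was checked on simulated data.

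Array values were given for called members, up to 6 per direction between 8R and NIC and 4 elsewhere, or for the 2 with the lowest p where none was called. Up to 4 called partners per list were named. The members, lists and naming rule were chosen with earlier results of these data known. The labels name pools of 5 rats as replicates. They do not say whether CA1 and CA3 pools came from the same rats, and the tests treated all arrays as independent. Deviations of arrays from their group means were correlated over genes to check pairing. In 8R, total and polysome arrays of a region with the same sample-name number all correlated, at 0.284 to 0.772, and across regions and fractions together 14 of 15 pairs of numbers 1 to 3 (median 0.349) and 6 of 6 pairs of number 4 exceeded 0.1. The independence of CA1 and CA3 is thus doubtful in 8R, and a fit with the 8R or NIC number as a random block over both regions is given as an alternative. By contrast, in NIC 1 of 18 pairs with the same number exceeded 0.1. The number of arrays limits the precision. No arrays held identical values.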

Additional observations from a re-analysis of the deposited data

Results flagged for a closer look

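For Cacna2d1 the CA1 polysome change minus the CA1 total change was -0.73 log2 (adjusted p = 0.0156). For Cacna2d3 the same difference was -0.70 (adjusted p = 0.0167). Both calls were lost without NIC CA1 total replicate 2 or without 8R CA1 polysome replicate 3. These values stand with their array values in the report.

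Among the 28 tested members, 84 groups of 4 arrays were examined, and in 7 of them 1 array lay far from the others, as Dixon's ratio of its gap to the range measures. Chance marks about 1 in 20 groups in this way. Cacna2d1 in 8R CA1 total replicate 2 was the lowest of its group, at an intensity of 119 (ratio 0.948), and still above every NIC array. Cacnb2 in 8R CA1 total replicate 3 was the highest of its group, at 437 (ratio 0.871), and was the 1 array of that group above the NIC range. Cacnb4 in 8R CA3 polysome replicate 4 was the lowest of its group, at 149 (ratio 0.83). Cacna1c in 8R CA1 total replicate 2 was the lowest, at 27.9 (ratio 0.888). Cacna1i was marked in both CA3 fractions of 8R, as the lowest in polysome replicate 1, at 104 (ratio 0.842), and the highest in total replicate 3, at 89.96 (ratio 0.919). Ryr1 in 8R CA3 polysome replicate 4 was the highest, at 42.8 (ratio 0.84).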

How the results depend on the processing

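Counts of called members were recomputed in 13 settings beside leaving out single arrays. Of 156 such counts over the 12 comparisons, 132 stayed within 1.5 times the reported value and 24 moved. Of 493 values of the 38 named differences, 477 kept their direction and their side of the threshold, 8 lost their call, 8 gained one and 0 changed direction. Scaling moved several counts. With equal medians the count was 12 in CA1 total RNA (reported 6), 13 in NIC CA1 polysome against total RNA (20), 6 in NIC polysome CA1 against CA3 (16) and 4 in NIC total CA1 against CA3 (2). Quantile normalization gave 14, 10, 6 and 5 there, and 5 in CA3 total RNA (3). Weighting arrays gave 14 in CA1 polysome RNA (4), 8 in CA3 total RNA (3), 5 in the CA3 difference between fractions (0) and 9 in NIC total CA1 against CA3. Fitting only the groups compared gave 1 in CA1 polysome RNA and 9 in NIC total CA1 against CA3. With the replicate number as a fixed block, which also ties 8R to NIC arrays that did not deviate together, the counts were 10 in CA1 total RNA, 9 in CA3 total RNA, 4 in the CA3 difference between fractions and 7 in NIC total CA1 against CA3. With a random block (consensus correlation 0.268) the latter 2 were 3 and 7, and no other count left the 1.5 times range. In the CA3 difference between fractions, weighting, the fixed block and the random block called 2206, 1908 and 1356 of 12716 tested genes, against 21 as reported. Without the number 4 arrays CA3 total RNA had 7, the CA3 difference between fractions 4 and NIC total CA1 against CA3 6. Leaving out single arrays gave 0 to 9 in CA1 polysome RNA, 0 to 2 in the CA1 difference between fractions, 0 to 4 in the CA3 difference and 4 to 9 in CA1 total RNA. In CA1 polysome RNA, Cacnb1 (adjusted p = 0.15), Cacnb2 (0.0946) and Itpr2 (0.0873) lost their call when only these groups were fitted. Among all called genes the share called higher moved from 58.5% to 35.4% with equal medians in CA1 polysome RNA, from 89.6% to 65.3% in CA3 polysome RNA, from 89.5% to 61.3% in NIC CA1 polysome against total RNA and from 10.7% to 21.3% in the CA1 difference between fractions. The description of protein length against the polysome to total difference was not run. With 3 or 4 arrays a group, and a wider spread in 8R than in NIC, a member that was not called may still have changed.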
